A study of Mus musculus with 4 samples.

Results

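Natural killer (NK) receptor genes and the transcription regulators of NK cells were examined in mouse bone marrow 8 h after lipopolysaccharide (LPS). The group took in every gene whose only annotated symbol began with Klra to Klrk, together with Ncr1, Cd244a, Cd226, Cd96, Tigit, Eomes, Tbx21, Id2 and Nfil3. Fasl was left out. This gave 32 of the 19938 genes that the arrays measured under a single symbol, of which 23 were Klr genes. Each of the 32 had 1 probe set with a single symbol.

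RNA came from whole bone marrow cells of C57BL/6N mice, and each sample was hybridised to its own Affymetrix Mouse Gene ST array. The LPS group held 2 arrays, from mice given 50 µg LPS (a mixture from Escherichia coli K12 and Salmonella minnesota) in a single intraperitoneal injection. The PBS group held 2 arrays, from mice given phosphate-buffered saline by the same route. Both groups were of the same strain, with no other allele or agent given in the labels. Replicates carry the numbers of the sample titles, 1 and 2 for LPS and 1 and 3 for PBS. The labels do not say whether a replicate was 1 mouse or a pool, so the p-values measure the spread between these samples, which may be technical.

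NK cells are innate lymphocytes that kill infected or transformed cells without prior priming, and a part of their development takes place in bone marrow. Each cell weighs signals from inhibitory receptors, most of which read MHC class I molecules on the target, against signals from activating receptors that bind stress-induced or viral ligands. In the mouse most of these receptors are C-type lectin-like proteins encoded side by side in the NK gene complex. The factors Eomes and Tbx21 (T-bet) set NK identity and maturation, while Nfil3 and Id2 are needed for commitment to the lineage. In whole marrow, fewer cells of a type and less RNA per cell cannot be told apart.

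After LPS, 2 of the 32 genes fell and 0 rose. The genes that fell were Klrd1, which encodes the CD94 subunit shared by NKG2A and NKG2C receptors, and Klra8, which encodes the activating receptor Ly49H. Among all genes, 1.27% fell and 2.39% rose, and 3.66% passed in either direction. A gene passed at an adjusted p under 0.05 in limma's moderated test with Benjamini-Hochberg adjustment over all 19938 genes. The median log2 difference (LPS minus PBS) over the 32 genes was -0.09, against -0.01 over all genes. It was -0.16 over the 23 Klr genes and 0.21 over the other 9. At an unadjusted p under 0.05 there were 9 of the 32 genes (28.1%), against 15.8% of all genes. The calls rest on limma's moderated variances: a linear model without moderation called 0 of all genes, with 2185 genes and 4 of the 32 at an unadjusted p under 0.05.

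**Figure D1:**
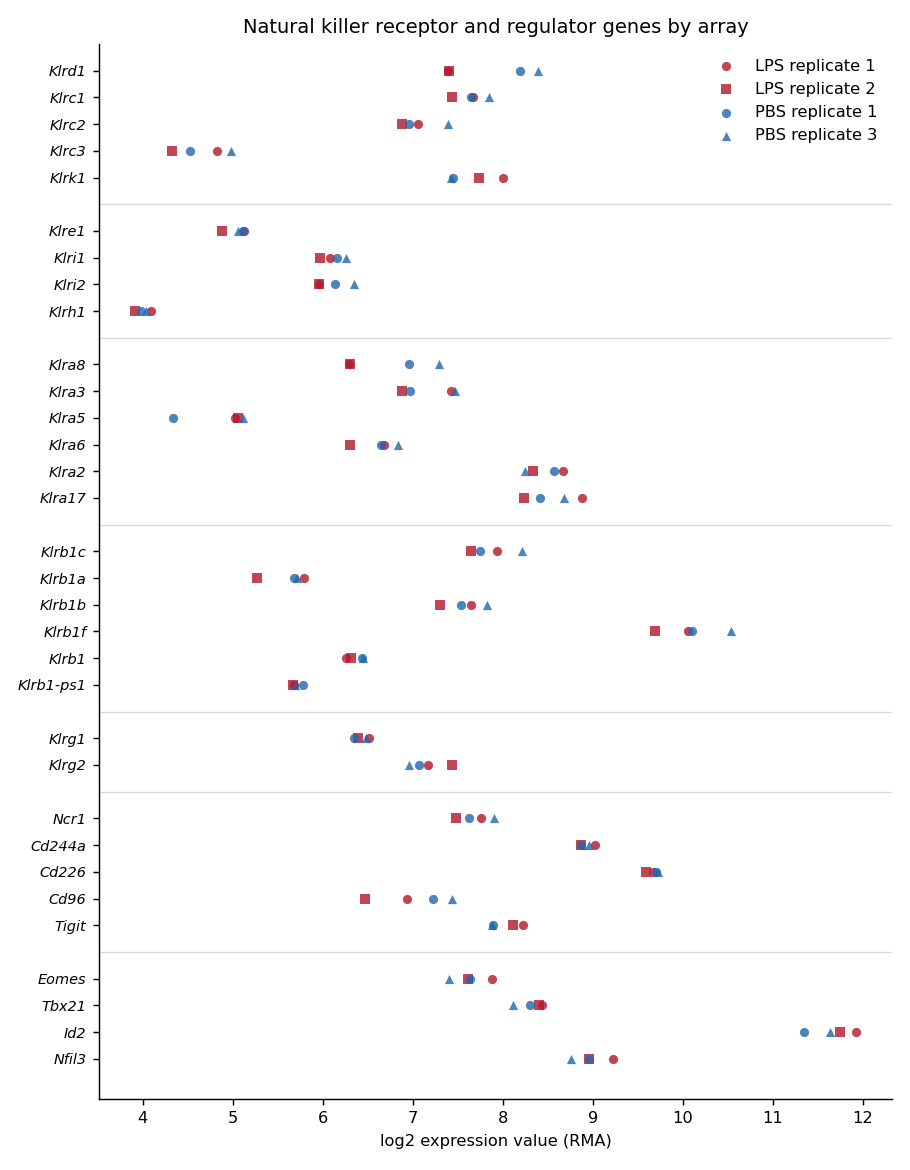
Log2 expression value (RMA, horizontal axis) of each of the 32 genes on each of the 4 arrays, in families separated by grey lines; red marks are LPS arrays and blue marks PBS arrays. Klrd1 at the top and Klra8 in the third family have both LPS arrays close together and below both PBS arrays, while in most other Klr genes the groups overlap.

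Klrd1 pairs with Klrc1 (NKG2A) in an inhibitory receptor and with Klrc2 (NKG2C) in an activating one. Its log2 value was 7.39 and 7.41 in LPS replicates 1 and 2, against 8.19 and 8.39 in PBS replicates 1 and 3. Both LPS arrays lay below both PBS arrays, and the LPS arrays differed by less than the PBS arrays. The means were 7.40 ± 0.0131 after LPS and 8.29 ± 0.135 after PBS (SD, n = 2 each). The log2 difference was -0.89 (SE 0.0988, 95% interval -1.12 to -0.66), a 1.86-fold lower value with a limma adjusted p of 0.00239. Leaving out each array in turn gave differences between -0.99 and -0.80. Such a fit leaves 1 array in a group, so only its difference is given, here and below.

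The partner genes of Klrd1 did not pass. Klrc1 had log2 values of 7.67 and 7.43 in LPS replicates 1 and 2, against 7.65 and 7.85 in PBS replicates 1 and 3. Its groups overlapped, and the 95% interval of its difference (-0.19) ran from -0.47 to 0.08, so a fall as large as that of Klrd1 lay outside the interval. Klrc2 had 7.06 and 6.87 after LPS, against 6.95 and 7.39 after PBS, with a difference of -0.21 and an interval of -0.55 to 0.14. For Klrc3 (NKG2E), whose mean level lay under the lower quartile of genes (6.69), the difference was -0.18 (interval -0.63 to 0.27). Within each array, the log2 value of Klrd1 minus that of Klrc1 changed by -0.70 between the groups. Both LPS arrays lay below both PBS arrays, but Klrd1 had been called on these same arrays, so this in part restates its fall. An exact two-sided permutation test gave p = 0.333 for each of 6 such pairs, all formed with Klrd1 or Klra8 (0.333 also after adjustment). That is the smallest p that 2 arrays against 2 can give, so the test cannot tell the pairs apart.

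Klrk1, the neighbour of Klrd1 on chromosome 6, encodes NKG2D, an activating receptor for stress-induced ligands that is made by NK cells and by activated CD8 T cells. Its log2 value was 8.00 and 7.74 in LPS replicates 1 and 2, against 7.45 and 7.42 in PBS replicates 1 and 3. The LPS arrays were thus both above the PBS arrays, by 0.43 on average (SE 0.11, 95% interval 0.18 to 0.69). This did not pass (limma adjusted p = 0.0888), and the difference ran from 0.30 to 0.57 when each array was left out. The value of Klrd1 minus that of Klrk1 changed by -1.33 between the groups (exact permutation p = 0.333, the smallest possible). This in part restates the fall of Klrd1.

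Klre1 and its partners Klri1 and Klri2 encode another pair of lectin-like receptors, inhibitory with Klri1 and activating with Klri2. All of them and Klrh1 had mean levels under the lower quartile of genes, and 0 of these 4 passed limma's test (1 at an unadjusted p under 0.05). Klri2 had 5.96 on both LPS arrays, against 6.13 and 6.34 in PBS replicates 1 and 3. The difference was -0.28, with an adjusted p of 0.236 in limma. The other differences were -0.18 for Klri1, -0.09 for Klre1 and -0.0026 for Klrh1.

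**Figure D2:**
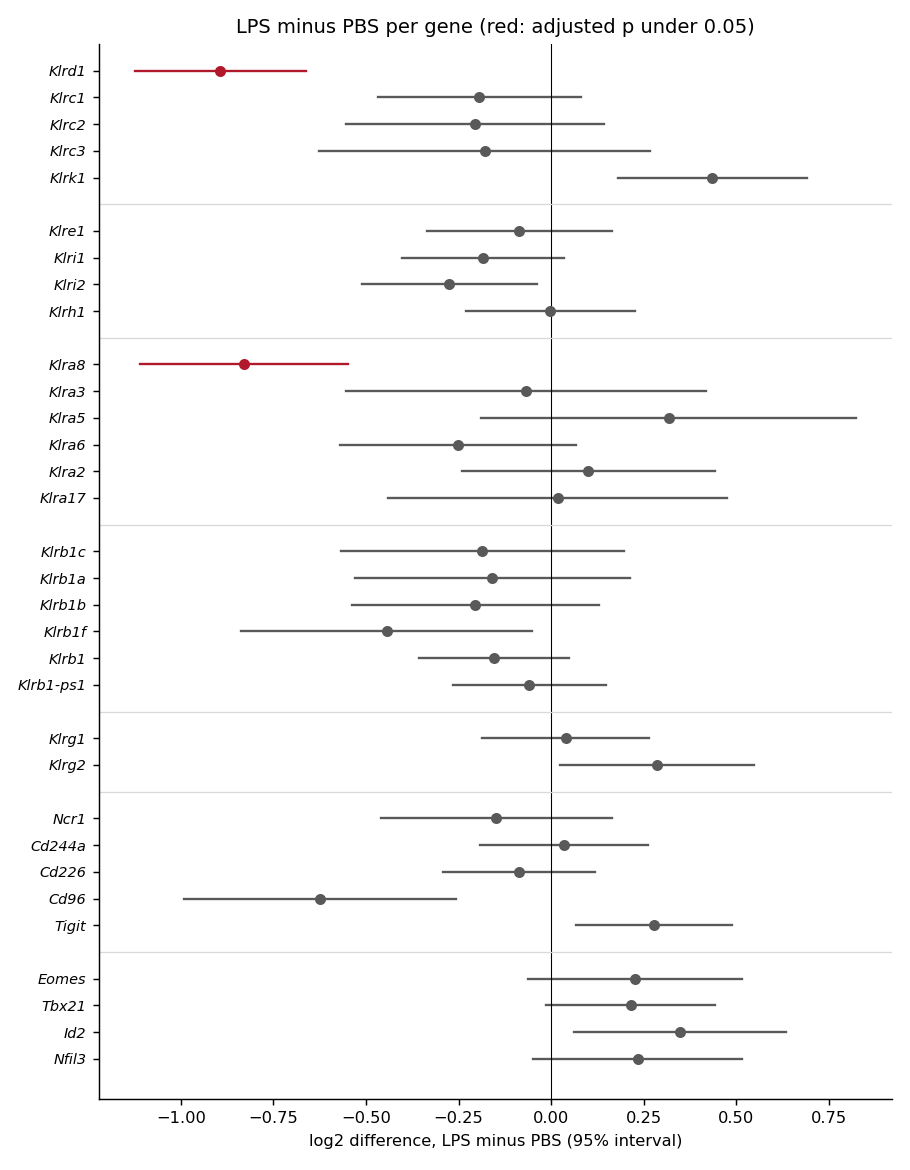
Log2 difference (LPS minus PBS, horizontal axis) of each of the 32 genes with its 95% interval from limma; red marks the genes with an adjusted p under 0.05. Klrd1 (-0.89) and Klra8 (-0.83) stand to the left, Klrk1 (0.43) is the member farthest to the right, and all 4 transcription regulators at the bottom have differences above 0 with none past the threshold.

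The Ly49 receptors, encoded by Klra genes, are the mouse counterparts in function of human KIR receptors. Klra8 encodes Ly49H, which binds a protein of mouse cytomegalovirus and is carried by a subset of NK cells in C57BL/6 mice. Its log2 value was 6.29 and 6.30 in LPS replicates 1 and 2, against 6.96 and 7.29 in PBS replicates 1 and 3. Both LPS arrays lay at nearly the same level, below both PBS arrays. The difference was -0.83 (SE 0.121, 95% interval -1.11 to -0.55), which is 1.78-fold lower, with a limma adjusted p of 0.00954. The LPS mean of 6.29 ± 0.00544 lay under the lower quartile of genes and the PBS mean of 7.12 ± 0.234 above it (SD, n = 2 each), so the size of the fold is uncertain. With all 35556 probe sets in 1 fit, Klra8 did not pass (adjusted p = 0.0739).

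The other 5 Klra genes measured under 1 symbol, all of them inhibitory, did not pass. Klra3 (Ly49C) had 7.43 and 6.88 in LPS replicates 1 and 2, against 6.97 and 7.47 in PBS replicates 1 and 3. The spread within each group was wider than the difference of -0.07 between them. Klra17 (Ly49Q), a receptor best known from plasmacytoid dendritic cells, had 8.88 and 8.24 after LPS, against 8.41 and 8.67 after PBS. Klra2 (Ly49B), known from myeloid cells, had 8.67 and 8.33 after LPS, against 8.56 and 8.24 after PBS. In both the groups overlapped, with differences of 0.02 and 0.10. Klra6 (Ly49F) had a difference of -0.25 and Klra5 (Ly49E) of 0.32. The Klra5 value was 0.71 without PBS replicate 3 and -0.07 without PBS replicate 1.

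Ly49 genes are close paralogs, and a probe set can take signal from several of them, so values for single Klra genes are uncertain. A further 4 probe sets were annotated with 3 to 7 symbols each that included Klra genes, and they were not counted as members. The probe set shared by Klra8, Klra3, Klra9, Klra10 and Klra14-ps had 6.35 and 5.90 in LPS replicates 1 and 2, against 6.65 and 6.92 in PBS replicates 1 and 3. Its LPS arrays were both lower, with a difference of -0.66 (adjusted p = 0.0768 in limma). The one with 7 symbols, Klra8 among them, had a difference of -0.56 (adjusted p = 0.209). The probe set for Klra9, Klra5 and Klra3 had -0.36, and the one that includes Klra4 (Ly49D), Klra7 (Ly49G) and Klra1 (Ly49A) had -0.09. All 4 differences were below 0 and 0 of the 4 passed (3 at an unadjusted p under 0.05).

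NKR-P1 receptors, encoded by Klrb1 genes, bind Clec2 proteins on other cells. Klrb1c encodes NK1.1, the surface antigen by which NK cells of C57BL/6 mice are usually sorted. Its log2 value was 7.94 and 7.65 in LPS replicates 1 and 2, against 7.75 and 8.21 in PBS replicates 1 and 3. The groups overlapped, with a difference of -0.19 (95% interval -0.57 to 0.20). Klrb1f had 10.05 and 9.69 after LPS, against 10.10 and 10.54 after PBS, and its LPS arrays lay below its PBS arrays. The difference of -0.44 did not pass (limma adjusted p = 0.252), and it ran from -0.66 to -0.22 when each array was left out. All 6 Klrb1 genes had differences below 0, from -0.44 to -0.06, and 0 of them passed (1 at an unadjusted p under 0.05). Without PBS replicate 3 that of Klrb1c was 0.05, and without LPS replicate 2 that of Klrb1a was 0.10. The inhibitory receptor gene Klrb1b had -0.21, Klrb1a -0.16, Klrb1 -0.16 and the pseudogene Klrb1-ps1 -0.06.

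Klrg1, an inhibitory receptor for cadherins that marks mature NK cells and effector T cells, had 6.51 and 6.39 in LPS replicates 1 and 2, against 6.35 and 6.48 in PBS replicates 1 and 3. These values overlapped and their means differed by 0.04. Klrg2, a related lectin-like gene, had 7.17 and 7.43 after LPS, against 7.07 and 6.96 after PBS. Its difference of 0.29 had an adjusted p of 0.268 in limma.

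Receptors of the immunoglobulin type gave values on both sides of 0, and 0 of 5 passed (2 at an unadjusted p under 0.05). Cd96, Tigit and Cd226 encode receptors that share nectin-like ligands, with Cd226 (DNAM-1) activating and Tigit inhibitory. For Cd96 the log2 value was 6.94 and 6.46 in LPS replicates 1 and 2, against 7.22 and 7.43 in PBS replicates 1 and 3. The LPS arrays were both lower and differed from each other more than the PBS arrays did. The difference of -0.62 (SE 0.158) did not pass (limma adjusted p = 0.0902). It was -0.73 without PBS replicate 1, -0.86 without LPS replicate 1 and -0.39 without LPS replicate 2.

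Tigit had 8.22 and 8.11 in LPS replicates 1 and 2, against 7.89 and 7.88 in PBS replicates 1 and 3. Both LPS arrays were higher, and the difference of 0.28 (95% interval 0.07 to 0.49) had an adjusted p of 0.18 in limma. Cd226 had a difference of -0.09, with an interval of -0.29 to 0.12. Ncr1 (NKp46), a receptor largely confined to NK and related innate lymphoid cells, had 7.76 and 7.47 after LPS, against 7.62 and 7.90 after PBS. The Ncr1 groups overlapped, with a difference of -0.15 (interval -0.46 to 0.16). Cd244a (2B4), which binds Cd48 and is also carried by myeloid cells, had 0.03 (interval -0.19 to 0.26).

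The 4 transcription regulators all had differences above 0, also when any 1 array was left out, and 0 of them passed (1 at an unadjusted p under 0.05). Eomes had 7.87 and 7.62 in LPS replicates 1 and 2, against 7.64 and 7.40 in PBS replicates 1 and 3, a difference of 0.23. Tbx21 had 8.43 and 8.40 after LPS, against 8.29 and 8.11 after PBS, a difference of 0.21. For Id2, an inhibitor of E proteins that many marrow cells express, the values were 11.93 and 11.75 after LPS, against 11.34 and 11.64 after PBS. Nfil3 had 9.23 and 8.95 after LPS, against 8.95 and 8.76 after PBS. In Tbx21, Id2 and Nfil3 each LPS array exceeded each PBS array, although in Nfil3 the nearest arrays were equal to 2 decimals, and in Eomes the groups overlapped. Id2 had the largest difference of the 4, 0.35 (SE 0.123, limma adjusted p = 0.218). It was 0.50 without PBS replicate 3 and 0.20 without PBS replicate 1.

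Sorted by the sign of the signal, 11 inhibitory members had a median difference of -0.07 and 7 activating members one of -0.19. The only member of these classes to pass was Klra8, an activating receptor, since CD94 serves both kinds and stood in neither. Klre1, also a subunit, and the pseudogene Klrb1-ps1 stood in neither class as well. Klrc3, Klrh1, Klrb1a, Klrb1f, Klrg2, Cd244a and Cd96 were not assigned to a class here, so the class medians leave them out. Their differences ran from -0.62 (Cd96) to 0.29 (Klrg2). The median over activating members took in differences from -0.83 (Klra8) to 0.43 (Klrk1). Each LPS array exceeded each PBS array in 6 of the 32 genes, against 20.4% of all genes. They lay below in 9 of the 32 genes, against 24.5% of all genes. The groups overlapped in the remaining 17.

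Replicates of the same treatment differed across the members together. LPS replicate 1 was above LPS replicate 2 in 27 of the 32 genes (84.4%), against 50.3% of all genes, and PBS replicate 3 was above PBS replicate 1 in 23 (71.9%), against 46.0%. The median gap was 0.21 between the LPS arrays and 0.16 between the PBS arrays, and over all genes it was 0.00 and -0.02. When each gene was centred on its 4-array mean, the median of the centred values over the members was 0.07 and -0.14 in LPS replicates 1 and 2, against -0.02 and 0.11 in PBS replicates 1 and 3. The members' median difference between treatments (-0.09) was smaller in size than either of these gaps between replicates. It was 0.05 without LPS replicate 2 and -0.22 without LPS replicate 1. Basophil and mast cell markers (7 genes, 0 passing and 0 at an unadjusted p under 0.05) had a like pattern, at 0.05 and -0.20 in LPS replicates 1 and 2 and -0.04 and 0.22 in PBS replicates 1 and 3. Among them Hdc had a treatment difference of 0.21 and Prss34 of -0.21. Monocyte and macrophage markers had smaller replicate gaps of the same signs, at 0.10 and 0.07 after LPS and -0.12 and -0.05 after PBS. Neutrophil markers shared the sign of the LPS gap only, at -0.05 and -0.20 after LPS and 0.14 and 0.09 after PBS. B cell markers (7 genes, 0 passing and 2 unadjusted) stood at -0.32 and 0.15 after LPS and at 0.12 and 0.07 after PBS, with treatment differences of -0.13 for Cd79b and -0.15 for Cd79a. What made the replicates differ was not tested.

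**Figure D3:**
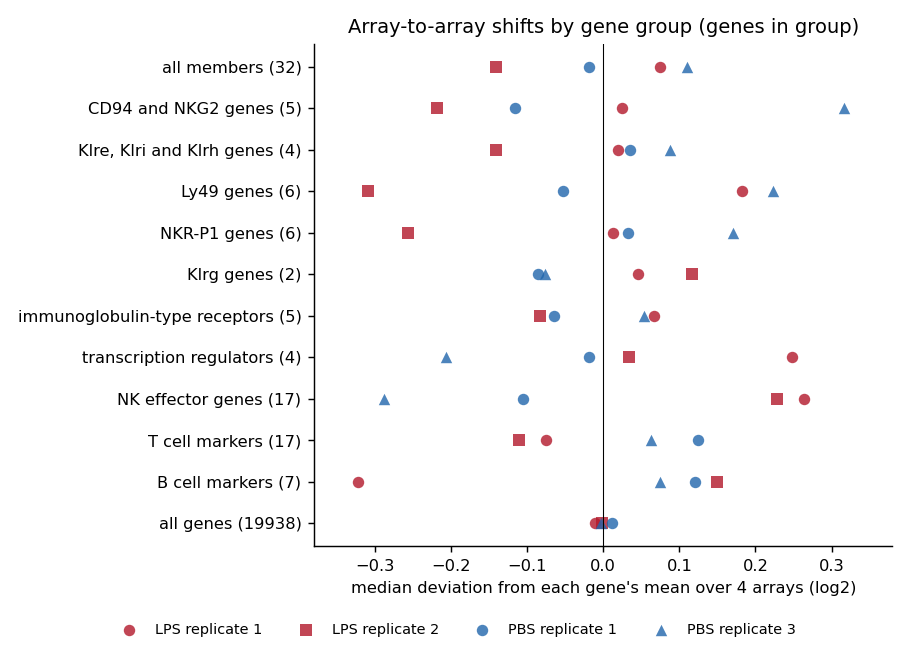
Median deviation of each gene group from its genes' own means over the 4 arrays (log2, horizontal axis); red marks are LPS arrays and blue marks PBS arrays, and the number of genes stands in brackets. For all members LPS replicate 2 lies lowest at -0.14 and PBS replicate 3 highest at 0.11, with LPS replicate 1 and PBS replicate 1 between them, while all genes stay near 0.

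Other genes of the NK programme were set beside the receptors. Of 17 effector genes, 8 rose and 0 fell, with a median difference of 0.39. Differences were above 0 in 11 of the 17 and below 0 in 6, the lowest in Nkg7 (-0.39). Among all genes 2.39% rose and 1.27% fell, the shares to set beside this and the later lists. The protease gene Gzmb had 10.76 and 10.81 in LPS replicates 1 and 2, against 6.90 and 6.99 in PBS replicates 1 and 3, a difference of 3.84 (adjusted p = 2.49e-06 in limma). The chemokine genes Ccl3 (2.68) and Ccl5 (2.29) followed, and both are also made by myeloid cells. All 3 had LPS arrays above PBS arrays by more than 1 log2 unit.

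Of 19 genes for receptor adaptors and signalling, 0 passed (3 at an unadjusted p under 0.05), with a median of -0.05. They include Tyrobp (DAP12), the adaptor of Ly49H and of other activating receptors, which had a difference of -0.31 (adjusted p = 0.151), and Fcer1g, with 0.10. Both adaptors are also abundant in myeloid cells. Among 15 ligand genes, Nectin2 rose (0.53) and Clec2i, which encodes a ligand of Klrb1f and Klrb1 products, fell (-0.57). Clec2i had 8.76 and 8.60 after LPS, against 9.17 and 9.32 after PBS. The ligand median was 0.04.

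In the cytokine axis, 3 of 17 genes rose and 1 fell, with a median of -0.06. Il15ra, which presents the NK survival factor interleukin-15, rose by 0.96, Il18 by 0.91 and the interleukin-12 receptor gene Il12rb1 by 0.86. Il18r1, a receptor chain for interleukin-18, had 7.37 and 7.06 in LPS replicates 1 and 2, against 7.92 and 7.77 in PBS replicates 1 and 3, and fell (-0.63, adjusted p = 0.0364 in limma). Of 19 other transcription factors 0 passed (5 unadjusted), with a median of 0.03, and Irf8 and Irf2 had 0.12 and 0.06. Of 26 maturation and trafficking genes, the activation marker gene Cd69 rose (1.05) and Cd7, a surface protein of T and NK cells, fell (-0.90), with a median of -0.12. These lists were described by counts and medians only.

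**Figure D4:**
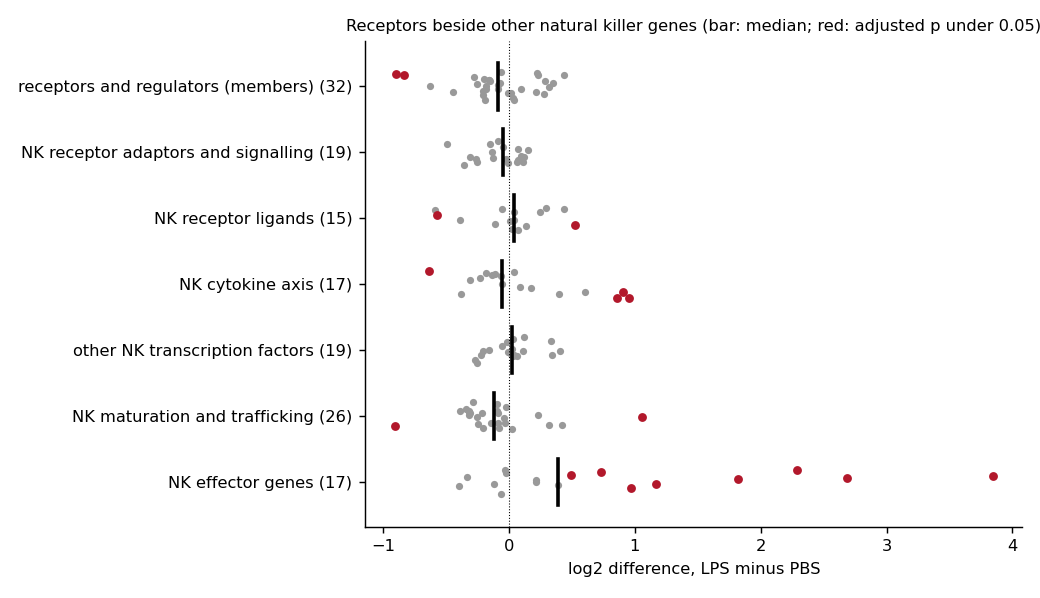
Log2 difference (LPS minus PBS, horizontal axis) of every gene in the receptor and regulator group and in 6 lists of genes that act with them, spread vertically within each row for legibility; the black bar is the median and red marks an adjusted p under 0.05. The receptor and regulator row has its 2 red genes on the left, whereas the effector row has all 8 red genes on the right.

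The NK marker genes changed in both directions. Of the 11 NK markers written down for this tissue, Gzma and Prf1 rose, Klrd1 fell and 8 did not pass, among them Il2rb (0.40, adjusted p = 0.0908) and Nkg7 (-0.39, adjusted p = 0.0667). The summed log2 value of the 7 markers that are members was 52.5 and 51.2 in LPS replicates 1 and 2, against 52.1 and 52.5 in PBS replicates 1 and 3, so the groups overlapped. Over all 11 markers the sum was 91.20 and 89.17 after LPS, against 88.71 and 89.18 after PBS, a slight overlap. Differences of opposite sign cancel in such sums, as with Klrd1, which passed, and Klrk1, which did not. Several members are also expressed by T cells, among them Klrd1, Klrk1, Cd96, Cd226 and Tigit. Of 17 T cell markers, 3 fell (Themis, Cd8b1 and Icos) and 0 rose, with a median of -0.23. Their summed log2 value was 132.9 and 131.8 after LPS, against 136.6 and 136.1 after PBS. The part of T cells in the values of Klrd1 and Cd96 was not tested.

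Markers of other marrow cells had high values on all arrays, with at least 11.75 for Retnlg (neutrophils), Cd79a (B cells) and Slc4a1 (red cell precursors). Plasmacytoid dendritic cell markers had a median of -0.01 over 9 genes, with Irf7 (1.85) and Bst2 (1.60), both interferon-inducible, rising. Of 9 monocyte and macrophage markers, Fcgr1 (1.57), Adgre1 (0.56) and Ms4a6c (0.49) rose and Mertk (-0.54) fell, with a median of 0.12. Of 9 neutrophil markers, Retnlg fell by 0.76 and 0 rose, with a median of -0.26. The 4 erythroid markers had a median of -0.19, and 0 passed (1 unadjusted), with -0.18 for Slc4a1 and -0.14 for Alas2. Arrays correlated across genes, which are not independent replicates, at r = 0.997 within LPS and 0.995 within PBS and at 0.988 to 0.990 between groups.

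Of the 32 members, 23 lie on chromosome 6, most of them in the NK gene complex. Differences were below 0 in 17 of these 23 (73.9%, against 52.5% of all genes) and above 0 in 6. In the order from Klrb1a to Klrh1, only Klrk1 had a difference above 0. Klrd1 (-0.89) lies between Klre1 (-0.09) and Klrk1 (0.43). Klra8 (-0.83) lies between Klra6 (-0.25) and Klra3 (-0.07) among the genes measured under 1 symbol.

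Promoter sequences (RefSeq, GRCm38.p6, from 250 bases before to 50 after the annotated start) were matched to 27 of the 32 genes, with 32 promoters in all. Each was searched on both strands for 6 motifs, named after the factors known to bind them: GGTGTGA (T-box), TGTGGT (RUNX), TTCNNNGAA (GAS, bound by STAT factors), TTANGTAA (NFIL3), GAAANNGAA (core of the interferon-stimulated response element) and GGGANTTTC (part of the NF-kappaB consensus). A promoter of Klra8, which fell, and that of Klrk1 are shown because these receptors lie in the same complex and had opposite signs. Capitals mark a motif match, of which the Klra8 window has 0. The Klrk1 window has 1 to the RUNX letters, at -129 from the start, and 1 to the reverse complement of the interferon response letters, at -48, and these do not overlap.
Klra8, chr6:130129849-130130148, minus strand: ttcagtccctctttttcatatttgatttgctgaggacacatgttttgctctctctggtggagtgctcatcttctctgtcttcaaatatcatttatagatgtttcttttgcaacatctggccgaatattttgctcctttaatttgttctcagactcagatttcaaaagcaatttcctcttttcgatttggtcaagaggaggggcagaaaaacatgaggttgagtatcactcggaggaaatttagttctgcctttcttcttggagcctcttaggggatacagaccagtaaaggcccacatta
Klrk1, chr6:129623815-129624114, minus strand: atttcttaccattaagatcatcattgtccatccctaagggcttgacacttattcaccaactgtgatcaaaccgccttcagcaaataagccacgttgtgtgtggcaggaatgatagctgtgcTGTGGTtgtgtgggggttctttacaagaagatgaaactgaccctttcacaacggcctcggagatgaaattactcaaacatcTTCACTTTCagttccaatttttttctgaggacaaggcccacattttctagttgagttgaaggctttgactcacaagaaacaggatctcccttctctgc

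The RUNX letters were found in 12 of the 32 member promoters (37.5%), against 16.8% of all 32851 promoters in the table. They belong to 10 of the 27 matched genes, namely Cd96, Klrb1a, Klrb1c, Klrc1, Klrc2, Klrc3, Klre1, Klrk1, Ncr1 and Tigit. Promoters of 1 gene with different starts were counted separately, also where they overlap and share a site. This holds for the RUNX letters in Klrc2 and Ncr1, the NF-kappaB letters in Ncr1 and the interferon response letters in Klrb1b. The percentages therefore count such sites more than once. The T-box letters were in 0 of the 32 (3.98% of all promoters) and the NFIL3 letters in 1, that of Tigit (2.32% of all). GAS letters were in 3 (8.30% of all) and the NF-kappaB letters in 3, of Klra2 and Ncr1 (1.11% of all). The interferon response letters were in 7 promoters (8.56% of all), those of Cd96, Eomes, Klrb1b, Klrb1f, Klri1 and Klrk1. These matches describe letters, not bound sites. The RUNX matches of 7 genes are shown with 15 bases on each side, the match in capitals (ACCACA where it lies on the other strand), to let paralogs be compared. Both windows of Klrc2 and Klrc3 are the same in every base, as are the genes' RUNX positions, at -76 and -49 relative to the start in that of Klrc3 and in 1 of those listed for Klrc2.
Klrc1, chr6:129679040-129679075, minus strand: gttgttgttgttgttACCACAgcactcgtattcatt
Klrc2, chr6:129660585-129660620, minus strand: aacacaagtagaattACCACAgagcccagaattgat
Klrc2, chr6:129660612-129660647, minus strand: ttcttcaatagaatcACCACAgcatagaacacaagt
Klrc3, chr6:129643317-129643352, minus strand: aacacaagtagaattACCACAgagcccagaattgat
Klrc3, chr6:129643344-129643379, minus strand: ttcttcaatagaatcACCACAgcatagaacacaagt
Klrb1a, chr6:128623040-128623075, minus strand: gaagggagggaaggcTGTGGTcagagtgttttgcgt
Klrb1c, chr6:128788710-128788745, minus strand: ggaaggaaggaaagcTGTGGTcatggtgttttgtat
Ncr1, chr7:4337524-4337559, plus strand: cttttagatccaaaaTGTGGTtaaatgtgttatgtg
Ncr1, chr7:4337659-4337694, plus strand: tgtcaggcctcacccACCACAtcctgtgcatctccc
Tigit, chr16:43664304-43664339, minus strand: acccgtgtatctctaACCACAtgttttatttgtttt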

How the data were processed

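The authors deposited 1 log2 value for each probe set and array, computed with RMA per the submitters' processing notes. The RMA version, the probe annotation and the genome build were not given in the sources used here. That the scale is log2 was judged from the range of the values. Probe sets were named through the platform annotation: 21789 of 35556 had 1 symbol, 1621 had several and 12146 had none named here. A gene with several was represented by its brightest (highest 4-array mean), leaving 19938 genes, with no filter on low values.

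LPS was compared with PBS in limma 3.58.1 (R 4.3.3; lmFit and eBayes, two-sided, all 4 arrays, no covariate; 2 residual and 5.59 prior degrees of freedom). The number of arrays limits the precision. The fit was also run on simulated data with independent noise drawn from limma's own fitted variances, which cannot test those assumptions on these arrays. No detection calls were used, and the lower quartile of gene means (6.69) serves as a caution mark. Figures used Python 3.11.15 and matplotlib 3.10.9.

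The members and lists were chosen with earlier results of these data known. Every member was named, with up to 3 rising and 3 falling genes of each list, or the 2 with the highest mean where none passed. Genes of a list without a single-symbol probe set were not used here.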

Additional observations from a re-analysis of the deposited data

How the results depend on the processing

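The count of lower genes (2, Klrd1 and Klra8) was 0 with an unmoderated linear model, which called 0 of all genes. It was 1 (Klrd1) with all probe sets in 1 fit. At an adjusted p under 0.1 it was 3, with Cd96 added, and the count of higher genes (0) was 1 (Klrk1). Counts from fits that leave out an array are not given. The median over members (-0.09) ran from -0.22 to 0.052 when each array was left out. Among the settings that kept every array, Klrd1 passed in each except the unmoderated model (adjusted p = 0.355). Klra8 passed in each of these settings except that model (0.437) and the fit of all probe sets. Over these settings, adjusted p ran from 0.00139 to 0.355 for Klrd1 and from 0.00547 to 0.437 for Klra8.

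Of 437 recomputed member values, 20 changed sign. Many of the 437 could not, since settings that alter only the test, the threshold or the genes fitted keep a member's difference. The sign changed in 12 genes, none of which passed with all 4 arrays. Klrh1 had 0.0040 with arrays centred on their medians. When each array was left out, Klrc2 ran from -0.43 to 0.013, Klrc3 from -0.43 to 0.067, Klre1 from -0.21 to 0.036, Klrh1 from -0.092 to 0.087, Klra3 from -0.34 to 0.21, Klra5 from -0.072 to 0.71, Klra2 from -0.068 to 0.27, Klra17 from -0.30 to 0.34, Klrb1c from -0.42 to 0.045, Klrb1a from -0.42 to 0.10, Klrg1 from -0.026 to 0.10 and Cd244a from -0.041 to 0.11. The cause was not tested. No paired analysis was possible because the groups share only 1 replicate number. Signal over background is unknown per probe set, which limits the 11 members whose mean lies under the lower quartile.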
